A study of Homo sapiens with 6 samples.

Results

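The collagen, laminin and matrix modifier genes were followed through human retinal organoid fragments that had spent 3 days either under the retina of a dog or in a dish. The group held 73 of the 36601 genes counted. Members were chosen by a rule on gene symbols: the numbered collagen chains, the 12 laminin chains, the tissue inhibitors of metalloproteinases TIMP1 to TIMP4, the proteases MMP2, MMP9 and MMP14, the latent TGF-beta binding proteins LTBP1 to LTBP4, and FN1, VTN, TNC, SPARC, ELN and SVEP1. All 73 were found in the annotation GENCODE v29 of the human genome GRCh38. Both groups were grown from the pluripotent line WA09, a long-established line of human embryonic origin, with a CRX-tdTomato reporter, and from organoids of 113 to 126 days that were triturated into fragments. The transplanted group (n = 3) was injected into the subretinal space of normal dogs and recovered after 3 days, and the cultured group (n = 3) held fragments of the same organoid batches kept in a dish for the same time. The experiment was done 3 times, and each Set gave 1 transplanted and 1 cultured sample, so the samples are paired by Set. The organoids came from 1 line, and sample numbers below are Set numbers.

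Fibrillar collagens form the tensile scaffold of connective tissue, type IV collagens and laminins form basement membranes, and fibril-associated collagens decorate the surface of fibrils. MMPs cut these proteins, TIMPs block the MMPs, and LTBPs store latent TGF-beta in the matrix. In the eye the pigment epithelium and its basement membrane are rich in TIMP3, elastin and collagens, Müller glia lay down the inner limiting membrane, and photoreceptors are surrounded by an interphotoreceptor matrix and are a known source of vitronectin.

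The promoter windows of VTN and COL16A1 are shown because these members had the largest rises in rods. Each is the 250 bases before the gene start that RefSeq gives on GRCh38.p14, read 5′ to 3′ on the minus strand, on which both genes lie. The VTN window is chr17:28370308-28370557 and the COL16A1 window is chr1:31704018-31704267. Both windows lie inside the GENCODE v29 spans of these genes given below, so RefSeq and GENCODE place the gene starts differently.
VTN: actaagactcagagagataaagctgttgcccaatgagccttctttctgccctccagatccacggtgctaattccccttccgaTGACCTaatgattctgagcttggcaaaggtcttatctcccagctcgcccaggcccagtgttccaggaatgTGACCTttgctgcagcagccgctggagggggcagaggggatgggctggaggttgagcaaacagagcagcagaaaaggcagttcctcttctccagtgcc
COL16A1: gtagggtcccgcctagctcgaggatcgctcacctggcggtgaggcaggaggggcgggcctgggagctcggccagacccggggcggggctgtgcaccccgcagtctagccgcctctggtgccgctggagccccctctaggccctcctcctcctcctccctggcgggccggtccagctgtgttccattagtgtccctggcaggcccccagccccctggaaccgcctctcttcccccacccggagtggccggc
Capitals mark TGACCT, which is AGGTCA, a nuclear receptor half-site, read on the other strand. The motif was in the windows of VTN, COL7A1, LAMA2 and TIMP4 among the 71 members with a promoter entry, and in 12.08% of all 35116 promoters, counting both strands. The photoreceptor-type motif TAATCC was in the windows of LTBP1, LTBP2 and LTBP4 and in 5.621% of all promoters. The AP-1 motif TGANTCA was in those of COL10A1, LAMA3 and LAMB3 and in 6.573% of all promoters. The COL16A1 window held none of the 3. MMP2 and SVEP1 have no entry. These letters are a description of the windows, and no binding was measured.

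The deposited matrices held 45281930, 6850189 and 43989876 unique molecular identifiers (UMIs, 1 per captured transcript) in transplanted samples 1, 2 and 3, and 74298633, 108222149 and 8000032 in cultured samples 1, 2 and 3. After quality filters 7246, 686 and 4535 transplanted cells and 15045, 9646 and 1850 cultured cells were kept. Any 2 libraries shared 0 to 40 cell barcodes, at most 0.729% of the smaller one. Cells were divided by gates on genes outside the module: cones (PDE6H at 3 or more UMIs and above NRL), rods (NRL at 3 or more, otherwise), Müller glia (HES5, WIF1 and TTYH1 together at 3 or more), pigment epithelium (PMEL and TYRP1 together at 3 or more) and remaining cells. Among markers the gates did not use, NR2E3, a rod transcription factor, was at 104 to 304 CPM in the 6 rod samples and at 21.2 to 85.4 CPM in the 6 cone samples, and GNAT2, the cone transducin, was at 20.4 CPM or more in every cone sample and at 14.5 CPM or less in every rod sample. ARR3, the cone arrestin, overlapped, at 9.22 to 23.3 CPM in cones and 2.95 to 11.5 CPM in rods. The rod genes CNGB1 and PDE6B and the cone genes RXRG and THRB overlapped as well. The rod gene PDE6A was higher in cones than rods in transplanted samples 1 and 2 and cultured sample 3, and lower elsewhere. Cells whose share of transcripts from genes named after sequencing clones, mostly human noncoding genes, was under the 1st percentile of cultured cells of their Set, called host-like below, made up 8.51% of rods, 20% of cones and 56.4% of Müller glia in transplanted sample 3. The share of such transcripts was 2.46% in all kept cells of transplanted sample 3, against 4.01% in cultured sample 3. In rods of that Set it was 2.38% against 3.69%. In all kept cells of Sets 1 and 2 it was 0.639% against 0.663% and 1.97% against 1.83%. Whether host-like cells came from the dog was not tested. All levels are CPM, the UMIs of a gene scaled to the same total of UMIs in each sample and class, counted at the 3′ end of transcripts and therefore not scaled by length.

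Before any effect of transplantation, the module was divided by cell class. Each class was set against the mean of the other classes within the same samples in edgeR, with p-values adjusted over all 20474 genes tested, and 69 of the 73 members entered. Müller glia had 30 members above and 7 below that mean, against a background over all genes of 15.6% above and 8.7% below. Pigment epithelium had 19 above and 10 below (background 10.6% and 16.7%). Rods had 7 above and 19 below (background 14.7% and 8.08%), cones had 7 above and 23 below (16.9% and 11.8%, or 28.7% on either side), and remaining cells had 12 above and 19 below (20.9% and 11.9%, or 32.8% on either side). COL3A1, COL6A6, COL11A2 and LAMA4, which are in these counts, had no pigment epithelium UMI, so their fitted contrasts have no readable size. The same holds for COL6A3, COL10A1, COL19A1, COL24A1 and COL28A1, which were not called in any class.

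**Figure D1:**
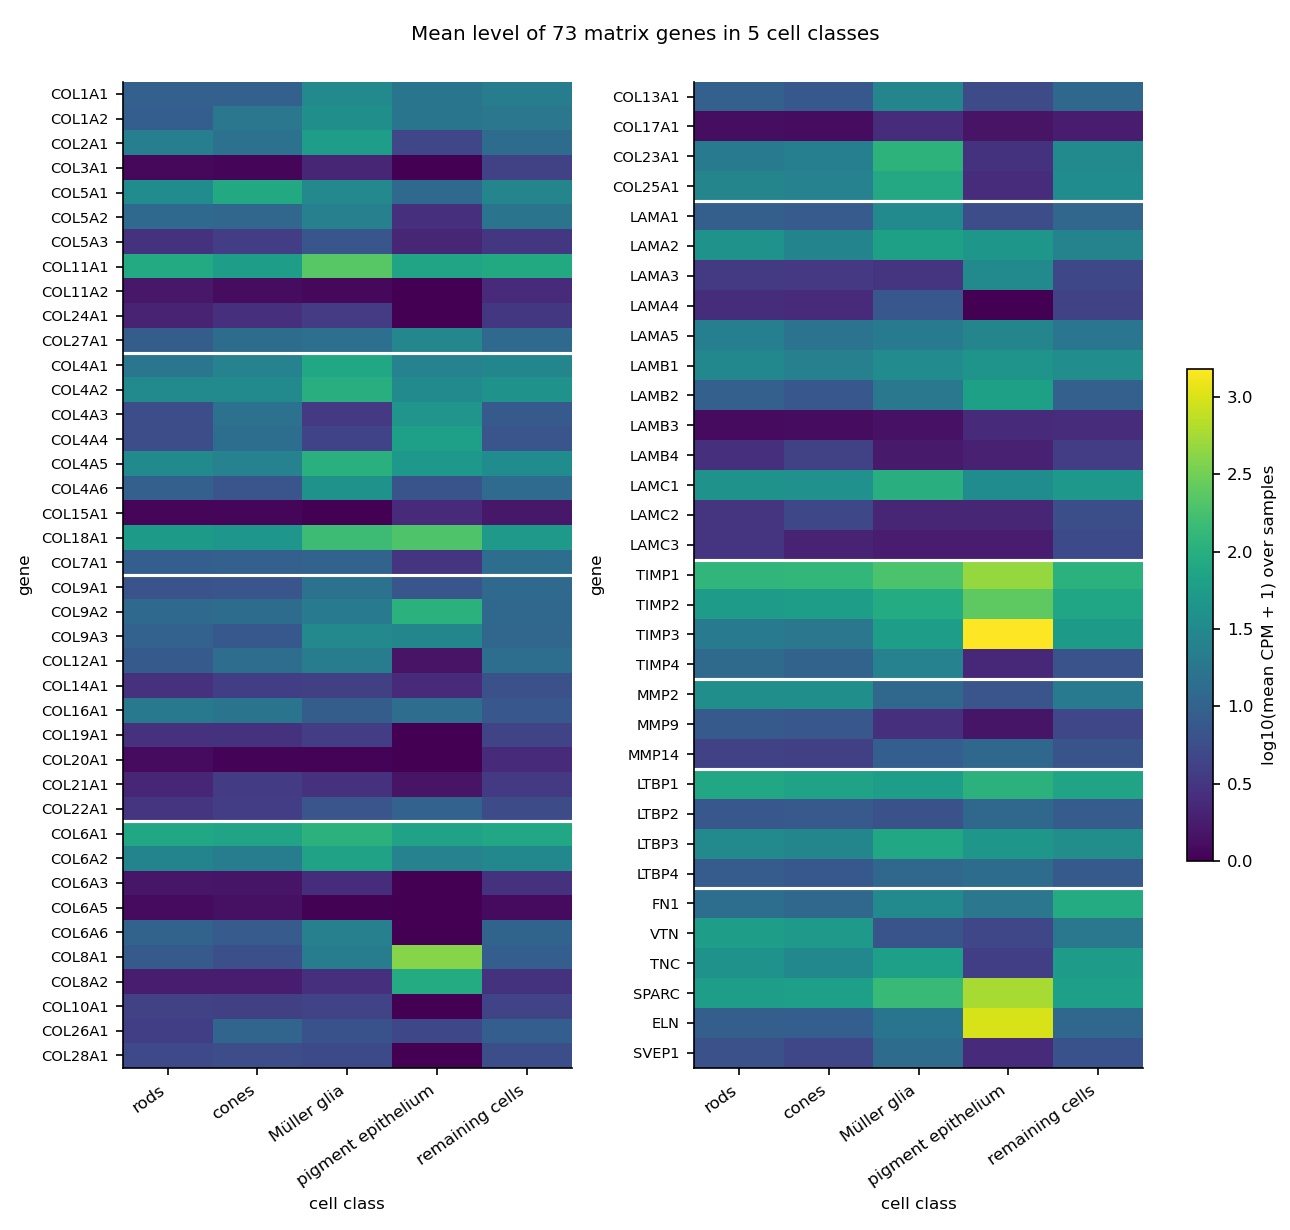
Mean level of each of the 73 members in 5 cell classes, as log10(mean CPM + 1) over the samples with at least 20 cells of the class (6 samples, but 1 transplanted and 2 cultured for pigment epithelium), with white lines between families. TIMP3 and ELN are brightest in pigment epithelium at means of 1512 and 960 CPM, and VTN is brighter in rods and cones, at 58.7 and 52.0 CPM, than in Müller glia at 5.79 CPM.

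In pigment epithelium the member with the highest mean was TIMP3. TIMP3, the matrix-bound inhibitor of metalloproteinases, averaged 1512 CPM there and was above the mean of the other classes by 5.66 ± 0.25 (log2 ± SE, adjusted p = 2.23e-14). ELN, elastin, averaged 960 CPM (6.14 ± 0.31, adjusted p = 5.06e-12). The short-chain network collagens COL8A1 and COL8A2 averaged 400 and 89.8 CPM, with log2 differences of 5.57 ± 0.34 and 6.75 ± 0.35. The basement membrane chains COL4A3, COL4A4 and LAMA3 were likewise above the mean of the other classes, by 4.34, 4.62 and 5.46 on the log2 scale. COL23A1, COL25A1 and TNC were below it there.

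Müller glia had the most members above the mean of the other classes. COL11A1, a minor fibrillar chain, averaged 226 CPM there and was above the other classes by 1.58 ± 0.14 (adjusted p = 5.39e-10). COL23A1, a transmembrane collagen, averaged 114 CPM (2.66 ± 0.22), COL2A1, the fibrillar collagen of cartilage and vitreous, 59.8 CPM (2.46 ± 0.23), and TIMP4 24.5 CPM (2.43 ± 0.39). The type IV chains COL4A1, COL4A2, COL4A5 and COL4A6 were all above the mean, by 1.49 to 1.96, whereas COL4A3 and COL4A4 were below it in these cells, by −2.29 and −2.37.

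Of the 7 members above the mean in each photoreceptor class, VTN, MMP2, MMP9 and COL16A1 were shared by rods and cones, and the others were COL2A1, COL6A6 and TNC in rods and COL4A3, COL4A4 and COL5A1 in cones. COL2A1, COL6A6 and TNC averaged 21.7, 9.37 and 42.2 CPM in rods, against 59.8, 23.5 and 60.8 CPM in Müller glia. They averaged 3.70, 0 and 2.93 CPM in pigment epithelium, which lowers the mean of the others, taken on the log scale. COL4A3 and COL4A4 averaged 15.0 and 13.0 CPM in cones, against 45.0 and 61.0 CPM in pigment epithelium. VTN, vitronectin, an adhesive glycoprotein that binds integrins, was above the other classes by 2.31 ± 0.23 in rods (adjusted p = 8.29e-08) and by 2.10 ± 0.24 in cones. MMP9 and MMP2, gelatinases that cut type IV collagen, were above by 1.64 and 1.17 in rods and by 1.63 and 1.26 in cones, and COL16A1, a fibril-associated collagen, by 1.06 and 0.84. COL5A1, which nucleates collagen fibrils, was above the other classes in cones alone among the 5 classes, by 1.73 ± 0.27, at a mean of 84.8 CPM against 34.2 CPM or less elsewhere.

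In rods, vitronectin, 4 collagen chains and MMP2 rose after transplantation, and SVEP1 with 4 other collagen chains fell. The test was edgeR's quasi-likelihood test on UMIs summed per sample, with the Set as a block and Benjamini-Hochberg adjustment over all 17951 genes tested, and a gene was called at an adjusted p below 0.05. Of 61 members that passed the low-count filter, 6 were called higher and 5 lower, or 18.0%, where 4.29% of all genes tested were called (2.16% higher and 2.13% lower). The median log2 change of the 61 members was −0.19, and that of all genes tested −0.02. The other 12 members did not pass the filter (COL3A1, COL6A3, COL6A5, COL8A2, COL11A2, COL15A1, COL17A1, COL19A1, COL20A1, COL21A1, LAMB3 and LAMC3), and they reached at most 10.3 CPM in any rod sample. The same test without the Set block called 0 members and 0 genes in every class tested, with 8 rod members and 506 rod genes at an unadjusted p below 0.05, and DESeq2 with the block called 8 rod members and 728 rod genes.

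VTN (chromosome 17, 28367276 to 28373091, minus strand) had 71.4, 108 and 98.1 CPM in transplanted rods 1, 2 and 3, against 30.3, 29.2 and 14.8 CPM in cultured rods. Every transplanted sample lay above every cultured one. The log2 change was 2.06 ± 0.29 (SE, n = 3 pairs, adjusted p = 0.00163). The counts were spread over many cells: 497 of 1649, 62 of 170 and 483 of 1234 transplanted rods held a VTN UMI, as did 283 of 2648, 819 of 3004 and 36 of 354 cultured rods, and the single richest cell held at most 9.80% of a sample's VTN UMIs. SARM1 overlaps VTN on the opposite strand, and its log2 change in rods was 0.28 ± 0.20 (adjusted p = 0.463). VTN was the 1 rod member still called without Set 3. It missed the threshold where rods that also passed another gate were left out (1.21, adjusted p = 0.0521).

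The fibril-associated collagens gave 3 of the 6 rises. COL16A1 (chromosome 1, 31652247 to 31704319, minus strand) had 38.2, 29.4 and 13.8 CPM in transplanted rods, against 16.0, 3.44 and 8.12 CPM in cultured rods, and rose by 1.93 ± 0.40 (adjusted p = 0.0274). It was higher in 3 of 3 Sets, although the value of transplanted sample 3 lay below that of cultured sample 1. COL9A2, a chain of type IX collagen, which sits on the surface of type II collagen fibrils, had 21.1, 11.8 and 12.5 CPM in transplanted rods, against 9.34, 7.23 and 4.43 CPM in cultured rods. The groups did not overlap (1.22 ± 0.26, adjusted p = 0.0117). Its partner chain COL9A3 had 22.9, 8.203 and 6.05 CPM in transplanted rods, against 7.66, 5.93 and 4.06 CPM in cultured rods (1.09 ± 0.28, adjusted p = 0.0337), with the lowest transplanted value inside the cultured range. COL9A3 in rods kept its call under 7 of 14 alternatives, and under DESeq2 its adjusted p was 0.0672. The remaining type IX chain, COL9A1, had a log2 change of −0.24 ± 0.42 and was not called.

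COL6A2, a chain of the microfibril-forming type VI collagen, had 35.7, 42.7 and 27.6 CPM in transplanted rods, against 17.9, 22.1 and 11.8 CPM in cultured rods. It was higher in every transplanted sample than in any cultured one (1.19 ± 0.21, adjusted p = 0.00445). The companion chain COL6A1 had 112, 72.9 and 77.6 CPM in transplanted rods, against 92.7, 62.4 and 64.2 CPM in cultured rods, and was not called (0.42 ± 0.22, adjusted p = 0.317). Another type VI chain, COL6A6, went the other way: it fell to 2.13, 3.62 and 7.95 CPM in transplanted rods, against 5.55, 12.6 and 24.3 CPM in cultured rods (−1.41 ± 0.28, adjusted p = 0.00869), lower in 3 of 3 Sets with overlapping groups.

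MMP2 (chromosome 16, 55389700 to 55506691, plus strand) had 29.1, 43.4 and 80.9 CPM in transplanted rods, against 13.7, 25.1 and 29.5 CPM in cultured rods. It was higher in 3 of 3 Sets (1.27 ± 0.22, adjusted p = 0.0041), and only transplanted sample 1 lay within the cultured range. MMP2-AS1, a gene on the opposite strand within the same region, had 4.09, 63.5 and 67.9 CPM in transplanted rods, against 0.440, 8.68 and 9.22 CPM in cultured rods, and rose more (3.12 ± 0.24, adjusted p = 2.65e-06). Whether the authors' counting used strand is not given in the sources used here, so reads of this pair cannot be told apart with certainty. MMP9 had a log2 change of 0.91 ± 0.38 and MMP14, a membrane protease that activates MMP2, one of −0.69 ± 0.44, and neither was called.

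The lowest called change in rods was that of SVEP1, a large adhesion protein that binds integrins (chromosome 9, 110365251 to 110579880, minus strand). It had 0.852, 0.483 and 2.74 CPM in transplanted rods, against 3.79, 10.5 and 12.9 CPM in cultured rods, from 10, 2 and 49 UMIs and 43, 507 and 35 UMIs. All transplanted values lay below all cultured ones (−2.42 ± 0.41, adjusted p = 0.00403). COL25A1, a transmembrane collagen, had 9.54, 13.3 and 14.4 CPM in transplanted rods, against 11.3, 66.4 and 49.4 CPM in cultured rods (−1.28 ± 0.30, adjusted p = 0.0272), and most of that fall lay in Sets 2 and 3. COL5A1 had 15.3, 19.5 and 29.5 CPM in transplanted rods, against 19.9, 62.5 and 58.3 CPM in cultured rods (−0.84 ± 0.23, adjusted p = 0.0456). COL4A5, a basement membrane chain, had 17.3, 19.8 and 23.0 CPM in transplanted rods, against 19.7, 51.6 and 59.0 CPM in cultured rods (−0.81 ± 0.22, adjusted p = 0.0483). Both of these last calls lay close to the threshold. Under DESeq2, COL5A1 in rods (adjusted p = 0.0809) and COL4A5 in rods (adjusted p = 0.0945) were not called.

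**Figure D2:**
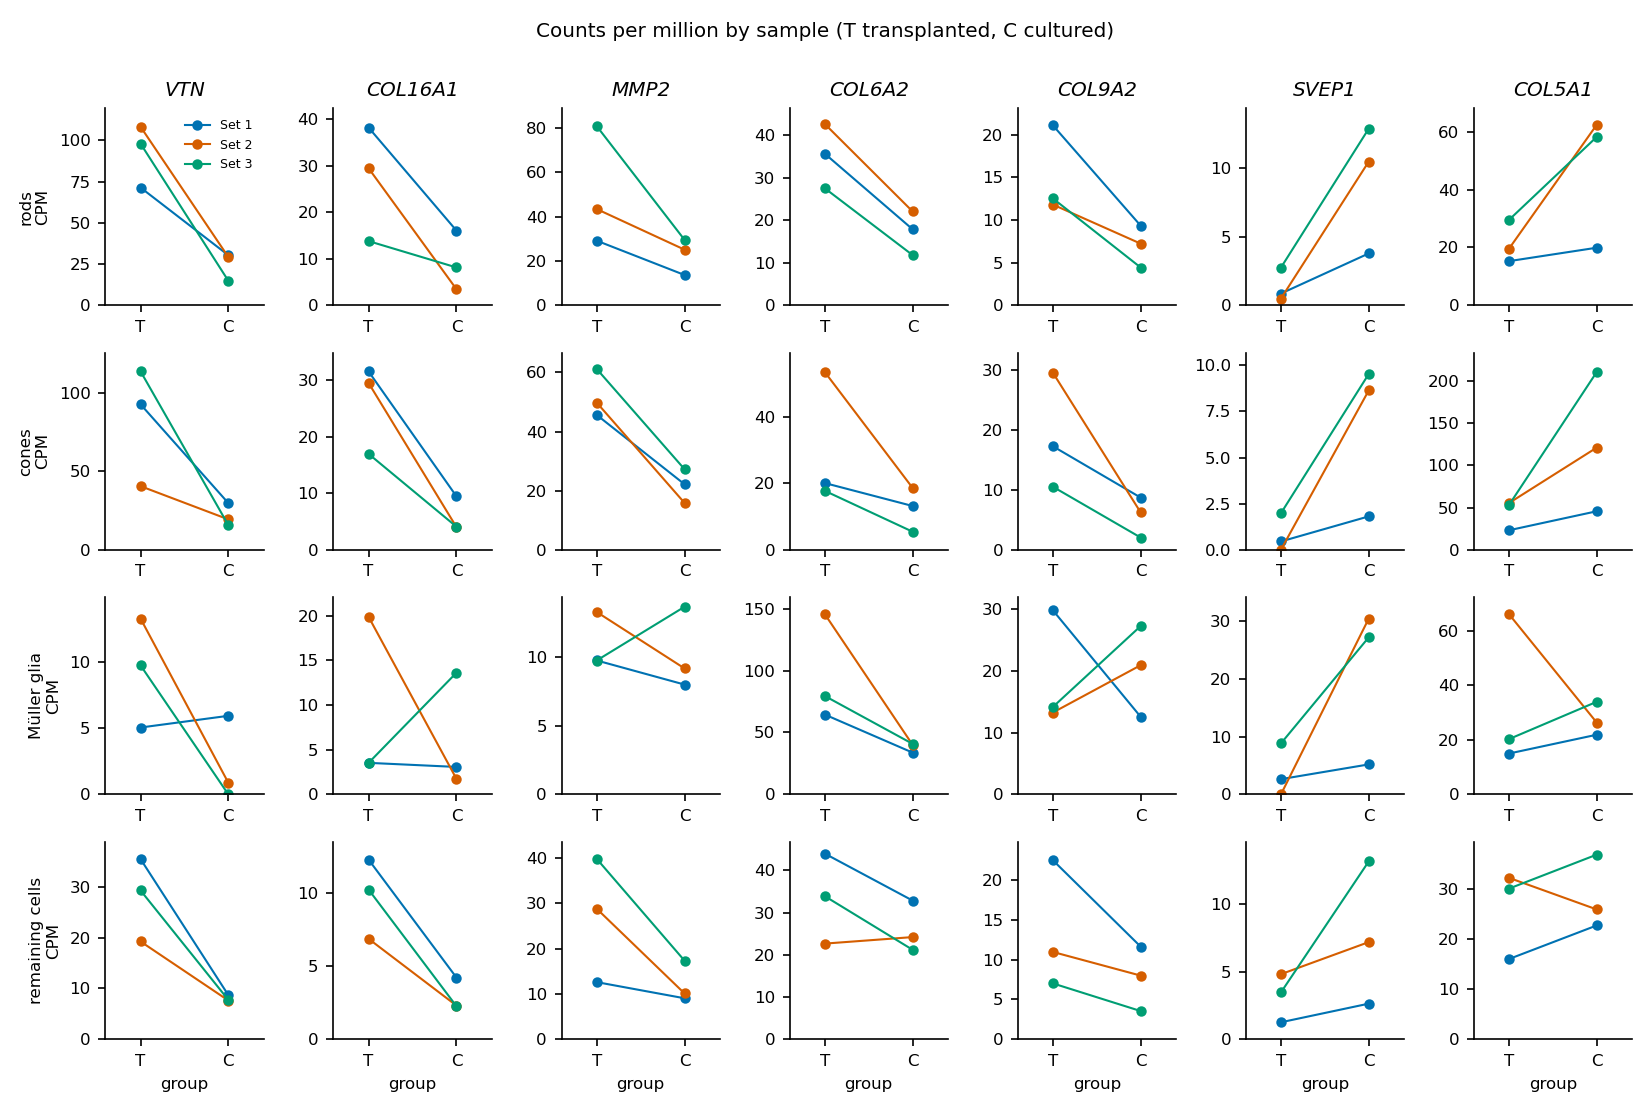
CPM of 7 members in each sample (points, joined within a Set) for transplanted (T, left) and cultured (C, right) cells, with 1 row of panels per cell class and a linear axis from 0 in each panel. In rods the 3 transplanted VTN values of 71.4 to 108 CPM sit above the 3 cultured values of 14.8 to 30.3 CPM, whereas SVEP1 slopes the other way.

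Whole families of the module showed no call in rods. None of the 10 laminin chains tested was called, with a median log2 change of −0.44. LAMC1, the gamma chain of most laminins, had 12.8, 30.2 and 31.6 CPM in transplanted rods, against 17.7, 105 and 54.2 CPM in cultured rods (−0.85 ± 0.24, adjusted p = 0.0559). LAMB1 had 26.6, 16.4 and 23.0 CPM in transplanted rods, against 33.2, 38.9 and 38.7 CPM in cultured rods, without overlap but also without a call (−0.59 ± 0.21, adjusted p = 0.122). None of the 4 TIMPs and none of the 4 LTBPs was called. TIMP1, the member with the most counts in rods, had 168, 143 and 83.6 CPM in transplanted rods, against 134, 171 and 29.1 CPM in cultured rods (0.65 ± 0.33, adjusted p = 0.306). FN1, fibronectin, had 7.07, 6.03 and 18.2 CPM in transplanted rods, against 6.96, 14.7 and 24.3 CPM in cultured rods, and TNC, the anti-adhesive tenascin C, had a log2 change of −0.15 ± 0.24.

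Some members differed far more between Sets than between groups. LAMA2, the alpha chain of merosin laminins, had 6.31, 49.2 and 88.8 CPM in transplanted rods, against 4.49, 47.9 and 58.3 CPM in cultured rods. LTBP1 had 11.2, 74.3 and 114 CPM in transplanted rods, against 14.2, 126 and 131 CPM in cultured rods. Both were low in the 2 samples of Set 1, the Set that the authors processed with another Cell Ranger version, and the Set and the version cannot be told apart.

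Mural cell and fibroblast markers, 12 genes such as PDGFRB and ACTA2, summed to 63.2, 43.7 and 36.5 CPM in transplanted rods, against 77.3, 92.9 and 37.3 CPM in cultured rods, lower in 3 of 3 Sets. With every cell holding 3 or more UMIs of these markers left out, 13 rod members were called. Müller glia markers summed to 4424, 3132 and 1786 CPM in transplanted rods, against 3704, 4005 and 786 CPM in cultured rods. Of these markers HES5, TTYH1, RLBP1 and CRYM were higher in 3 of 3 Sets, SOX2 and SLC1A3 lower in 3 of 3, and the others mixed. Among the members called higher in rods, VTN, COL16A1 and MMP2 averaged 5.79, 7.56 and 10.6 CPM in Müller glia, below their rod means. COL6A2, COL9A3 and COL9A2 averaged 67.4, 30.5 and 19.6 CPM there, against 26.3, 9.14 and 11.1 CPM in rods. The part of Müller glia RNA in the rod changes was not tested. Dividing progenitor markers, 8 genes, summed to 153, 75.0 and 110 CPM in transplanted rods, against 732, 241 and 323 CPM in cultured rods, and astrocyte markers, 7 genes, to 106, 139 and 120 CPM, against 272, 390 and 181 CPM. Cone markers, 9 genes, summed to 595, 1104 and 1026 CPM in transplanted rods, against 533, 873 and 607 CPM in cultured rods. The gate gene PDE6H alone gave 399, 634 and 583 CPM of these in transplanted rods, and 320, 379 and 185 CPM in cultured rods. The sums of the progenitor, astrocyte, amacrine or horizontal and choroid plexus lists were lower in 3 of 3 Sets, those of the cone and pigment epithelium lists were higher in 3 of 3, and their part in the changes of the members was not tested. Host-like cells held 25.5% of all UMIs and 33.2% of the VTN UMIs of transplanted rods in Set 3, and 0.057% and 0% in Set 1. They also held 56.5% of the COL9A3 UMIs, 39.8% of the COL6A2 UMIs and 15.9% of the MMP2 UMIs of transplanted rods in Set 3. With these cells left out 12 rod members were called. The share of all genes called without the host-like cells, or without the cells with mural markers, is not reported here. Leaving out Set 3 left 1 of the 11 rod calls, and the other 10 had adjusted p-values up to 0.263. Leaving out rods that also passed another gate ended the calls of COL6A2 in rods (adjusted p = 0.165), COL9A2 in rods (0.196), COL6A6 in rods (0.208) and COL5A1 in rods (0.101) besides that of VTN, and COL9A3 and SVEP1 had too few counts for the test there. Without Set 1, COL9A3 in rods (0.398) and COL9A2 in rods (0.0583) were not called, and without Set 2, COL5A1 in rods (0.354), COL4A5 in rods (0.236) and COL25A1 in rods (0.0655) were not. COL9A3 in rods also lost its call without the cells with mural markers (0.187), and COL16A1 in rods without the host-like cells (0.0602).

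**Figure D3:**
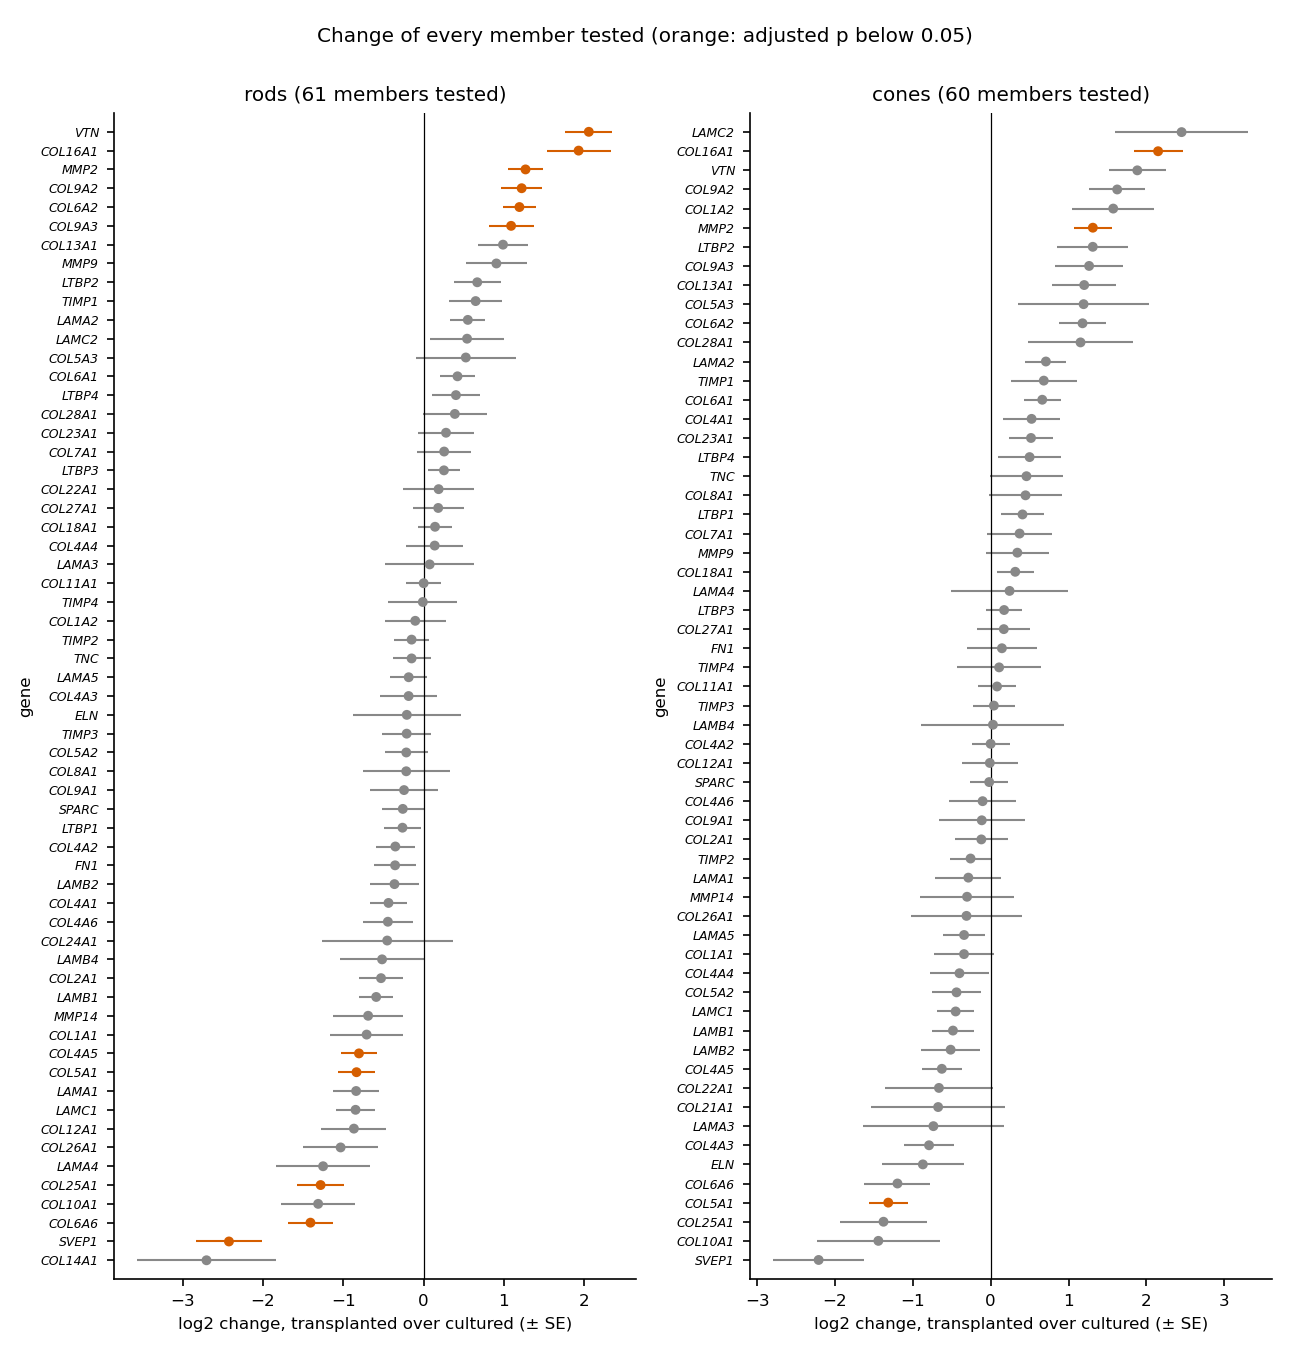
Log2 change of every tested member, transplanted over cultured, with its SE as a horizontal bar (n = 3 pairs), for rods on the left and cones on the right, sorted by the change, with members at an adjusted p below 0.05 in orange. VTN at 2.06 leads the rods, and COL16A1 at 2.15 is the highest called member of the cones, while COL5A1 is called lower in both panels at −0.84 and −1.32.

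In cones, COL16A1 and MMP2 rose and COL5A1 fell. These 3 calls among 60 members tested were 5% of them, where 0.488% of all 17406 genes tested were called (0.201% higher and 0.287% lower). The median log2 change was 0.06 for the members and −0.03 for all genes. COL16A1 had 31.5, 29.5 and 17.0 CPM in transplanted cones, against 9.46, 4.02 and 4.09 CPM in cultured cones. The groups did not overlap (2.15 ± 0.31, adjusted p = 0.0118). MMP2 had 45.6, 49.8 and 61.2 CPM in transplanted cones, against 22.2, 15.9 and 27.2 CPM in cultured cones, again without overlap (1.31 ± 0.24, adjusted p = 0.0307), and MMP2-AS1 rose in cones too (2.96 ± 0.34, adjusted p = 0.00253).

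COL5A1, the module's cone-enriched collagen, fell to 23.1, 55.3 and 53.0 CPM in transplanted cones, against 45.7, 121 and 210 CPM in cultured cones. It was lower in 3 of 3 Sets (−1.32 ± 0.25, adjusted p = 0.0342), although transplanted samples 2 and 3 lay above cultured sample 1. VTN had 92.7, 40.6 and 114 CPM in transplanted cones, against 29.7, 19.4 and 15.7 CPM in cultured cones, with no overlap, but narrowly missed the threshold (1.88 ± 0.36, adjusted p = 0.0564). VTN in cones was called under DESeq2 (adjusted p = 0.00239), and over the alternatives that kept the block and all 3 Sets its log2 change was 1.87 to 2.12. COL9A2 had 17.2, 29.5 and 10.5 CPM in transplanted cones, against 8.69, 6.22 and 2.04 CPM in cultured cones (1.63 ± 0.36, adjusted p = 0.0754). SVEP1 had 0.454, 0 and 1.98 CPM in transplanted cones, against 1.81, 8.64 and 9.54 CPM in cultured cones, where the 0 allows up to 5.53 CPM (−2.21 ± 0.58, adjusted p = 0.124).

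The cones of transplanted sample 2 were 34 cells, and single cells weighed heavily there. One cell held 20 of the 36 COL1A2 UMIs, 22 of the 28 COL4A2 UMIs and 11 of the 30 COL5A1 UMIs of that sample. Without Set 2 no cone member was called, and without Set 3 there were 9. The share of all genes called in these fits is not reported here. Without Set 1, COL5A1 in cones had an adjusted p of 0.0697 and MMP2 in cones one of 0.112. MMP2 in cones also lost its call with all NRL cells taken as rods (0.144) and with cells passing more than 1 gate left out (0.0598), both of which leave under 20 cones in transplanted sample 2 and so drop Set 2 from the fit. DESeq2 called 5 cone members and 143 cone genes. Rod markers summed to 568, 516 and 1027 CPM in transplanted cones, against 434, 513 and 390 CPM in cultured cones. The gate gene NRL alone gave 485, 363 and 761 CPM of these in transplanted cones, and 381, 426 and 227 CPM in cultured cones. Cones without an NRL UMI were 23.2%, 26.5% and 13.2% of transplanted cones, against 50.04%, 22.8% and 41.9% of cultured cones. Dividing progenitor markers summed to 116, 49.8 and 67.1 CPM in transplanted cones, against 464, 174 and 135 CPM in cultured cones, and the part of these lists in the cone calls was not tested.

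In Müller glia, 0 of 51 members tested were called, where 0.407% of all 13755 genes were. Of these members 8 had an unadjusted p below 0.05, as did 915 of all genes (6.65%), and DESeq2 called 0 members and 5 genes. The class held 1566, 25 and 117 transplanted cells and 3124, 479 and 31 cultured cells, so 1 UMI weighed several CPM in transplanted sample 2 and cultured sample 3. COL9A3 had 53.0, 46.3 and 30.9 CPM in transplanted Müller glia, against 16.8, 22.6 and 13.6 CPM in cultured Müller glia, without overlap (1.52 ± 0.39, adjusted p = 0.056). COL6A2 had 64.5, 146 and 79.5 CPM in transplanted Müller glia, against 33.8, 40.04 and 40.8 CPM in cultured Müller glia, also without overlap (1.36 ± 0.36, adjusted p = 0.0742). Leaving out the host-like cells removed 66 of the 117 Müller glia of transplanted sample 3 and left 18 in transplanted sample 2, under the minimum of 20 cells, so that Set 2 left the fit as well. COL9A3 in Müller glia was then called (adjusted p = 0.0286) and COL6A2 in Müller glia was not (0.35). With Set 2 alone left out, the adjusted p of COL9A3 in Müller glia was 0.11. The most counted member there, COL11A1, had 192, 291 and 195 CPM in transplanted cells, against 158, 243 and 279 CPM in cultured cells (0.17 ± 0.44).

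Pigment epithelium reached 20 cells in transplanted sample 1 (64 cells) and cultured samples 1 and 2 (105 and 51 cells), so no test was possible and the intervals cover counting error only. The 10 pigment epithelium markers summed to 22794 CPM in the transplanted sample, against 17933 and 20355 CPM in the cultured ones. PMEL and TYRP1, the genes of the gate, are among these 10, so part of the sum follows from the gate. Among the markers outside the gate, RPE65, the retinoid isomerase, was at 11.2 CPM in the transplanted sample, against 34.7 and 98.01 CPM in the cultured ones. Choroid plexus markers, 6 genes, summed to 13964 CPM in the transplanted sample, against 9651 and 12900 CPM in the cultured ones. TTR is in both lists, and the part of these lists in the values below was not tested. TIMP3 was at 1840 CPM (95% Poisson interval 1717 to 1971) in the transplanted sample, against 1358 CPM (1270 to 1449) and 1337 CPM (1253 to 1425) in the cultured ones. ELN was at 1202 CPM (1102 to 1308) in the transplanted sample, against 942 CPM (869 to 1019) and 737 CPM (675 to 803) in the cultured ones. COL9A2 was at 173 CPM (136 to 216) in the transplanted sample, against 51.2 CPM (35.5 to 71.6) and 92.3 CPM (71.3 to 118) in the cultured ones.

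For these 3 genes the transplanted sample had the highest value, outside both cultured intervals. They were not alone in this, and TIMP1, COL18A1 and LAMB2 were among the others. The transplanted interval of TIMP1 (516 to 661 CPM) overlapped that of cultured sample 1 (451 to 560 CPM). That of LAMB2 (60.3 to 117 CPM) overlapped those of cultured samples 1 and 2 (33.0 to 68.1 and 40.6 to 77.4 CPM). LTBP1 and LAMC1 were instead lowest in the transplanted sample, outside both cultured intervals. LTBP1 was at 51.6 CPM there, against 110 and 170 CPM in cultured samples 1 and 2, and LAMC1 at 11.2 CPM, against 33.2 and 58.2 CPM. The LAMC1 value rests on 5 UMIs, and its interval (3.64 to 26.2 CPM) overlapped that of cultured sample 1 (20.8 to 50.2 CPM). COL8A1 was at 327 CPM in the transplanted sample, between the 181 and 692 CPM of cultured samples 1 and 2. LAMA3, COL4A3 and COL4A4 differed between the cultured samples instead. LAMA3 was at 6.73 CPM in the transplanted sample, against 9.04 and 78.1 CPM in cultured samples 1 and 2. COL4A3 was at 20.2 CPM, against 22.6 and 92.3 CPM, and COL4A4 at 40.4 CPM, against 33.2 and 109 CPM, in that order of samples.

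**Figure D4:**
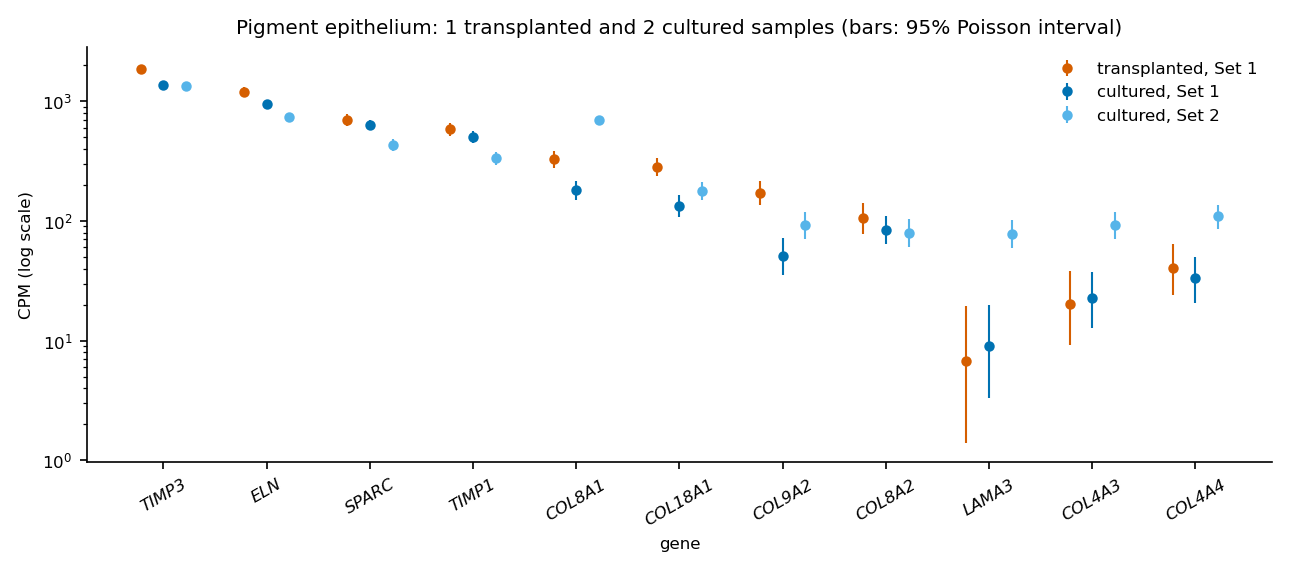
CPM of 11 members in pigment epithelium on a log axis, for transplanted Set 1 (64 cells), cultured Set 1 (105 cells) and cultured Set 2 (51 cells), with bars for 95% Poisson intervals that cover counting error only. TIMP3 and ELN are the highest in all 3 samples, and LAMA3 is at 6.73 and 9.04 CPM in the Set 1 samples and at 78.1 CPM in cultured Set 2.

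In the remaining cells, which mix all other types, VTN rose and the connective tissue members COL1A1 and SPARC fell. These 3 calls were 4.48% of the 67 members tested, where 0.886% of all 18512 genes were called (0.432% higher and 0.454% lower), and the median log2 change was −0.28 for members and −0.03 for all genes. VTN had 35.5, 19.2 and 29.3 CPM in transplanted remaining cells, against 8.64, 7.59 and 7.70 CPM in cultured remaining cells, with no overlap (1.73 ± 0.28, adjusted p = 0.0103). COL16A1 had 12.3, 6.86 and 10.2 CPM in transplanted remaining cells, against 4.21, 2.29 and 2.25 CPM in cultured remaining cells, without overlap and without a call (1.66 ± 0.37, adjusted p = 0.0587). Rod markers summed to 127, 223 and 304 CPM in transplanted remaining cells, against 103, 113 and 294 CPM in cultured remaining cells. The gate gene NRL is among them, and the part of cells with these markers in these values was not tested.

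COL1A1, the main chain of type I collagen, fell to 23.0, 5.49 and 3.69 CPM in transplanted remaining cells, against 41.8, 36.3 and 15.7 CPM in cultured remaining cells (−1.75 ± 0.32, adjusted p = 0.0221). SPARC, a collagen-binding protein secreted during matrix assembly, had 79.0, 26.1 and 16.2 CPM in transplanted remaining cells, against 139, 62.4 and 40.4 CPM in cultured remaining cells (−1.16 ± 0.24, adjusted p = 0.0343). Both were lower in 3 of 3 Sets with overlapping groups. COL1A2, the second type I chain, had 20.4, 2.75 and 2.02 CPM in transplanted remaining cells, against 35.4, 36.6 and 4.81 CPM in cultured remaining cells, and was not called (−1.64 ± 0.43, adjusted p = 0.106).

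Cells with 3 or more UMIs of the mural and fibroblast markers made up 1.17%, 1.53% and 1.57% of transplanted remaining cells, against 5.75%, 3.44% and 1.72% of cultured remaining cells. All 12 of these markers were detected in both groups, and their sum was 73.9, 65.2 and 66.5 CPM in transplanted remaining cells, against 197, 132 and 116 CPM in cultured ones. With those cells left out, COL1A1 in remaining cells (−1.35, adjusted p = 0.0552) and SPARC in remaining cells (−0.78, adjusted p = 0.151) were no longer called, while VTN in remaining cells was (adjusted p = 0.0116). Astrocyte markers summed to 490, 113 and 113 CPM in transplanted remaining cells, against 1513, 389 and 191 CPM in cultured ones, and their part in these falls was not tested. The amacrine or horizontal and choroid plexus sums were also lower in 3 of 3 Sets. DESeq2 called 6 members and 377 genes in this class. In summed counts of a mixed class, fewer cells of a type and less RNA per cell cannot be told apart. Without Set 1 none of the 3 was called, with adjusted p-values of 0.233 for VTN, 0.0684 for COL1A1 and 0.271 for SPARC, and without Set 2 that of SPARC was 0.0613.

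FN1 had 406, 10.98 and 16.3 CPM in transplanted remaining cells, against 18.9, 42.9 and 34.99 CPM in cultured remaining cells, so transplanted sample 1 stood far above the other 5 samples. In that sample 1844 of the 2613 FN1 UMIs lay in the 191 host-like cells among 2734 remaining cells. These cells held 8.89% of the class's UMIs and 70.6% of its FN1 UMIs. Myeloid markers, 10 genes such as PTPRC and CD68, summed to 69.8, 76.9 and 55.6 CPM in transplanted remaining cells, against 4.70, 10.2 and 15.1 CPM in cultured ones. The log2 change of FN1 was 0.28 ± 2.17, and it was −0.04 with the host-like cells left out.

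**Figure D5:**
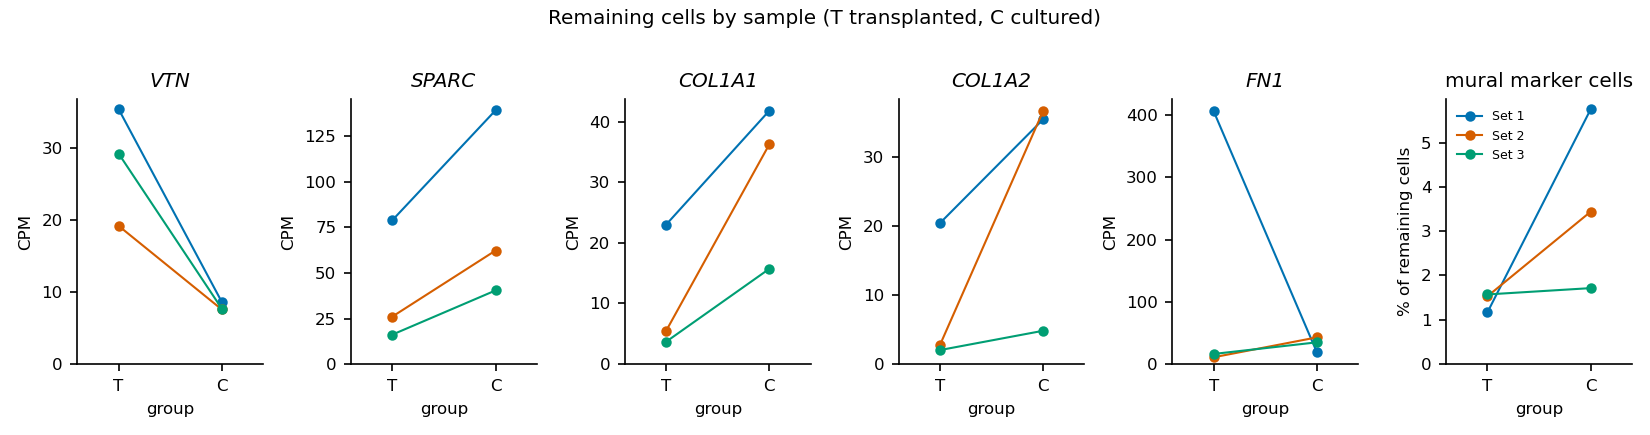
CPM of 5 members in the remaining cells of each sample, and the percent of those cells with 3 or more UMIs of mural and fibroblast markers, for transplanted (T, left) and cultured (C, right) samples joined within a Set. FN1 is at 406 CPM in transplanted Set 1 and at 42.9 CPM or less in the other 5 samples, and SPARC and COL1A1 are lower in the transplanted sample of all 3 Sets.

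No member passed a test of the difference in response between classes. The 4 pairs of classes compared were rods minus cones, rods minus Müller glia, cones minus Müller glia and remaining cells minus rods, with 65, 66, 65 and 70 members tested. Over all genes 0.0206%, 0%, 0.128% and 0% were called in that order, and the lowest adjusted p of a member was 0.844, 0.542, 0.276 and 0.836. At an unadjusted p below 0.05 there were 3, 5, 12 and 3 members, among them MMP2 in cones minus Müller glia, at a log2 difference of 1.02 ± 0.32 (adjusted p = 0.312), and COL1A2 in remaining cells minus rods, at −1.93 ± 0.38 (adjusted p = 0.836). A call in 1 class and not in another is therefore no sign here that the classes differed.

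Other genes of matrix assembly were read from 5 lists outside the module. Over all genes tested, 4.29% were called in rods, 0.488% in cones, 0.407% in Müller glia and 0.886% in remaining cells. Lists with 1 or 2 calls are too small to be set apart from these shares, so the calls below describe single genes. Among 28 collagen maturation enzymes tested in rods 2 rose and none fell, and the median log2 change was −0.04. LOXL1, a lysyl oxidase that cross-links elastin, had 141, 173 and 85.8 CPM in transplanted rods, against 58.4, 72.1 and 28.0 CPM in cultured rods, without overlap (1.54 ± 0.25, adjusted p = 0.00269). It rose in cones as well, the 1 call among 27 enzymes there, with 160, 177 and 117 CPM in transplanted cones, against 61.8, 83.0 and 39.5 CPM in cultured cones (1.396 ± 0.279, adjusted p = 0.0439). LOXL4, a related oxidase, rose in rods at low level, with means of 3.24 ± 0.77 CPM in transplanted and 0.956 ± 0.219 CPM in cultured rods (SD, n = 3 each).

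Of 24 other matrix proteins and proteoglycans tested in rods, 1 rose and 1 fell, where 4.29% of all rod genes were called. EFEMP2, a fibulin of elastic fibre assembly, had 27.9, 36.4 and 21.0 CPM in transplanted rods, against 12.9, 20.7 and 9.22 CPM in cultured rods (1.17 ± 0.21, adjusted p = 0.00486). VCAN, the large proteoglycan versican, had 35.7, 14.7 and 24.1 CPM in transplanted rods, against 70.2, 98.5 and 64.9 CPM in cultured rods (−1.50 ± 0.28, adjusted p = 0.00772). All 3 cultured VCAN values lay above all transplanted ones. VCAN fell in the remaining cells too (−1.41 ± 0.27, adjusted p = 0.0266), the 1 call among 28 genes of that list there.

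Among 17 TGF-beta ligands, receptors and targets tested in rods, 1 rose and 1 fell, where 4.29% of all rod genes were called. TGFB2, a TGF-beta ligand, fell (−0.97 ± 0.21, adjusted p = 0.0139) and BAMBI, a decoy receptor, rose (0.96 ± 0.22, adjusted p = 0.0183). In the remaining cells ITGA5, the alpha chain of the classical fibronectin receptor, fell to 6.84, 3.43 and 5.35 CPM in transplanted samples, against 15.6, 14.3 and 15.1 CPM in cultured samples (−1.52 ± 0.32, adjusted p = 0.0405), the 1 call among 26 matrix receptors there. No matrix receptor was called among 25 tested in rods or 25 in cones, no gene among 19 other proteases in rods or 18 in cones, and no gene of any of the 5 lists in Müller glia.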

How the data were processed

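Per the file headers, the authors made the deposited counts with Cell Ranger 6.0.2 (Set 1) and 7.1.0 (Sets 2 and 3), as raw UMI counts per gene and barcode from 10x 3′ libraries, and GRCh38 is named in the submitters' processing notes. Whether intronic reads were counted, and on which strand, is not given in the sources used here. Barcodes with at least 1000 UMIs, 500 genes and at most 20% mitochondrial UMIs were kept, and the highest Scrublet scores (30 components) were removed at 0.8% per 1000 barcodes, because the automatic calls marked 0 to 2 cells. UMIs were summed per sample and class where a class held at least 20 cells. edgeR 4.0.16 in R 4.3.3 (quasi-likelihood, TMM, filterByExpr with a minimum count of 10) tested transplanted over cultured with the Set as a block and Benjamini-Hochberg adjustment over all genes tested, and DESeq2 1.42.0 was an alternative. Single-cell steps used Python 3.11.15 and Scanpy 1.11.5.

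The design text states that both samples of a Set came from 1 organoid batch, which pairs them. Deviations from the group means of same-numbered samples correlated at 0.584 to 0.919 in rods, 0.322 to 0.867 in cones, 0.0544 to 0.740 in Müller glia and 0.611 to 0.923 in remaining cells. The highest value of each class was that of Set 1, the Set with another Cell Ranger version. Organoid batch and version cannot be told apart in these correlations. The design text describes 3 independent experiments, and how many dogs gave each transplanted sample is not given in the sources used here. The fits were tested on simulated counts, and the outcome is not reported here. Both samples of a Set were drawn there from a shared mean, so that check cannot say whether the block suits the real data. Genes named are all members called, the 6 members with the highest mean CPM in each class, FN1, VTN, TNC, SPARC, ELN, SVEP1, the TIMPs and the MMPs, and up to 4 called genes of each other list. Further members were named after their values were seen, as were the antisense genes. Some called genes of the other lists are not reported here. The members and lists were chosen with earlier results of these data known. Gene positions come from GENCODE v29, which held 34616 of the 36601 gene IDs.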

Additional observations from a re-analysis of the deposited data

How the results depend on the processing

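Over 15 alternatives per class no called member changed direction. Without the replicate block, the number of members called was 0 in rods (11 with it), 0 in cones (3), 0 in Müller glia (0) and 0 in remaining cells (3), and the unpaired test called 0 genes in all. With 1 Set left out in turn, it was 1 to 10 in rods, 0 to 9 in cones, 0 to 1 in Müller glia and 0 to 6 in remaining cells, and the tests of differences between classes gave 0 to 2 for rods minus cones, 0 to 1 for rods minus Müller glia, 0 to 1 for cones minus Müller glia and 0 to 1 for remaining cells minus rods. DESeq2 called 5 cone and 6 remaining-cell members, and no filter on low counts gave 9 and 9. Leaving out host-like cells gave 5 cone, 2 Müller and 6 remaining-cell members. Leaving out cells with mural markers, an alternative chosen after seeing the data, gave 5, 1 and 1. In Müller glia both of these steps left under 20 cells in transplanted sample 2 (18 and 19), so Set 2 left those fits too, as it did under the stricter cell filter (16). Equal cells per sample gave 7 rod and 1 remaining-cell members, a gate at 5 UMIs gave 1 in remaining cells and left too few Müller glia for a fit, median-ratio size factors gave 2 in Müller glia and no doublet removal 1. At the class level, members of remaining cells on either side of the mean numbered 31, and 18 with cells passing more than 1 gate left out. The causes were not tested. Shares of all genes called are not reported for most alternatives, so these counts do not set the members against other genes. Small classes limit precision: transplanted sample 2 held 34 cones and 25 Müller glia, and cultured sample 3 held 31 Müller glia.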
